A study of Mus musculus with 8 samples.

Results

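The MHC class II presentation genes are described here across macrophages with and without Lyz2-Cre that received PBS or LPS and nigericin. The set holds 10 of the 55401 genes in the count table: the peptide-binding chains H2-Aa, H2-Ab1 and H2-Eb1, the invariant chain Cd74, the DM chains H2-DMa, H2-DMb1 and H2-DMb2, the DO chains H2-Oa and H2-Ob, and the coactivator Ciita. Members were chosen by symbol, with earlier results of these data known, and each matched 1 gene identifier. All 10 passed the filter on low counts.

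Macrophages were grown from bone marrow of mice whose Mettl3 alleles were both floxed, so the floxed allele is common to all groups. KO cells came from mice that also carried Lyz2-Cre, a recombinase expressed from the lysozyme 2 locus in myeloid cells. WT cells came from floxed mice without Cre, so that loss of Mettl3, the catalytic subunit of the RNA m6A methyltransferase, cannot be told apart from the presence of Cre. The 4 groups of 2 libraries were KO cells given LPS (bacterial lipopolysaccharide, 50 ng/ml overnight) followed by nigericin (an ionophore that lets potassium leave the cell and so triggers NLRP3, 10 µM for 3 h), WT cells given the same, KO cells given PBS, and WT cells given PBS. The sources used here give neither age, sex nor strain background, nor whether a group's libraries were separate mice or cultures, so p-values may measure technical spread only.

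MHC class II molecules are heterodimers of an alpha and a beta chain that show peptides from endosomes to CD4+ T cells. New dimers assemble with the invariant chain, which blocks the groove and steers the complex to endosomes. Proteases then trim the invariant chain to the fragment CLIP, DM exchanges CLIP for other peptides, and DO restrains DM. Transcription of most of these genes depends at least in part on CIITA. That protein does not bind DNA but docks on a promoter-bound complex of RFX, CREB and NF-Y factors at neighbouring X and Y boxes. Bone marrow macrophages hold low resting levels of class II, and interferon gamma is the classical inducer of Ciita in them.

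In the GENCODE M21 annotation (GRCm38), 8 of the members lie in the class II region of chromosome 17. From the proximal end these were H2-Oa (34092340 to 34095234, plus strand), H2-DMa (34119541 to 34139101, plus), H2-DMb2 (34143307 to 34151555, plus), H2-DMb1 (34153072 to 34160230, plus), H2-Ob (34238903 to 34254414, plus), H2-Ab1 (34257689 to 34269419, plus), H2-Aa (34282744 to 34287823, minus) and H2-Eb1 (34305867 to 34316674, plus). Ciita lies on chromosome 16 (10480059 to 10528418, plus), and Cd74 lies outside the region too.

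The following promoter stretches are shown because some of the members share the motifs marked in them and CIITA acts through such sites. They were taken from the RefSeq promoter table (GRCm38.p6), in which 7 members had an entry (8 promoters, each from 250 bases before to 50 bases after the gene start). Each line gives 61 bases upstream of the RefSeq gene start, 5′ to 3′ on the gene's strand, and capitals mark matches to CNNGCAAC, an X-box type motif, or TGATTGG, a Y-box type motif that contains the reversed CCAAT core.
H2-Aa: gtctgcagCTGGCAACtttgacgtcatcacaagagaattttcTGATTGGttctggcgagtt
H2-Eb1: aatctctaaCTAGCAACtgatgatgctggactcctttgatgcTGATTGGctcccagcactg
H2-Oa: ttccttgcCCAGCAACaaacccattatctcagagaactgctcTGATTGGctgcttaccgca
H2-Ob: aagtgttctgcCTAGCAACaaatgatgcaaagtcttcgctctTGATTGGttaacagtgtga
H2-DMb1: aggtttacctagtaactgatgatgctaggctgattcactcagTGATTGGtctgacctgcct
H2-DMb2: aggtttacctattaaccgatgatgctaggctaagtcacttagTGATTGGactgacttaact

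These stretches are chr17:34287855-34287915 (minus strand) for H2-Aa, chr17:34305764-34305824 for H2-Eb1, chr17:34092292-34092352 for H2-Oa, chr17:34238804-34238864 for H2-Ob, chr17:34153086-34153146 for H2-DMb1 and chr17:34145115-34145175 for H2-DMb2 (plus strand). The Y-type motif began 45 to 92 bases before the gene start. The chain genes H2-Aa and H2-Eb1 and the DO genes H2-Oa and H2-Ob held both motifs on the same strand, with 34, 33, 34 and 31 bases from the first base of the X-type to the first base of the Y-type motif. H2-DMb1 and H2-DMb2 held an exact match to the Y-type motif alone, and neither promoter of H2-DMa held a Y-type match. Near matches were not counted. H2-DMb1 holds ctagtaac and H2-DMb2 ctattaac near the place where the other stretches hold the X-type motif. Whether these are X boxes was not tested. Of 32851 promoters of 300 bases, searched on both strands, 11.2% held the X-type motif, 7.82% held the Y-type motif, and 12 (0.0365%) held both on 1 strand with starts 30 to 36 bases apart. The motif letters and the spacing were chosen after the members' promoters had been read, so the rarity of the pair is a description. The 2 motifs do not overlap at that spacing.

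Total counts lay between 55032057 and 65487739 per library, and the members took 0.107 to 0.420% of them. Levels are given as CPM, the counts of a gene scaled to a common library total on library sizes corrected for composition. Mettl3 checked the labels: it had 9.08 and 7.87 CPM in stimulated KO libraries, against 28.2 and 23.4 CPM in stimulated WT libraries, and 5.63 and 6.33 CPM in KO libraries with PBS, against 13.6 and 13.3 CPM in WT libraries with PBS. KO over WT was -1.61 ± 0.14 (log2 ± SE) after stimulation (adjusted p = 0.00283) and -1.17 ± 0.14 with PBS (adjusted p = 0.0143, with 0.0648 to 0.0805 without any 1 of the PBS libraries and 0.0601 with only the groups compared). Macrophage markers were detected in all libraries (7 of 7). As the samples are bulk cultures, fewer cells of a type and less RNA per cell cannot be told apart in any value below.

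With PBS, class II genes were higher in KO than in WT macrophages. Of the 10 members, 6 rose (H2-Aa, H2-Ab1, H2-Eb1, Cd74, H2-DMa and H2-DMb1) and 0 fell at an adjusted p under 0.05, against a background of 1.20% of 17470 tested genes called higher and 0.355% called lower. At an unadjusted p under 0.05, 9 were higher and 0 lower, against 8.68% and 6.71% of all tested genes. DESeq2 called 7 higher and 0 lower, against 3.18% and 1.68% of genes. The median KO over WT difference was 1.00 (log2) over the members and 0 over all tested genes. Both KO libraries lay above both WT libraries for 9 of the members, against 24.6% of all tested genes.

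After LPS and nigericin, 4 members were higher in KO than in WT cells (H2-Aa, H2-Ab1, H2-Eb1 and Cd74) and 0 were lower, against 2.91% and 2.01% of all tested genes. At an unadjusted p under 0.05 these counts were 8 and 0, against 10.6% and 9.22% of all tested genes. DESeq2 called 5 higher and 0 lower, against 5.34% and 4.04% of genes. The median difference was 0.80 over the members and -0.0045 over all tested genes, and all 10 members had both KO libraries above both WT libraries, against 25.0% of genes.

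**Figure D1:**
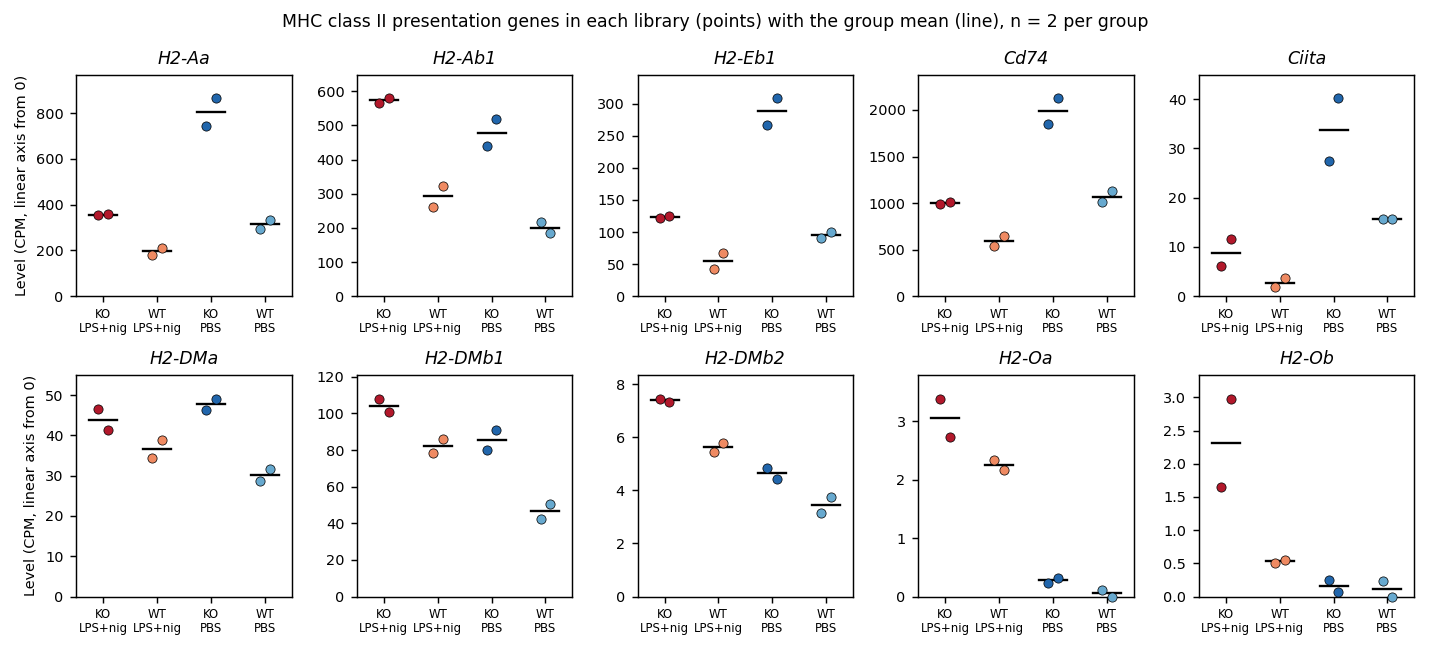
Level of each class II presentation gene in CPM (linear axis from 0) in every library (points) with the group mean (line), for KO and WT cells after LPS and nigericin (LPS+nig) and with PBS, n = 2 per group. KO points lie above WT points of the same treatment in every panel except H2-Ob with PBS, and H2-Ab1, the DM beta genes and the DO genes have a different order of treatments from H2-Aa, H2-Eb1, Cd74 and Ciita.

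The alpha chain gene H2-Aa, which encodes the alpha subunit of I-A, had 354 and 359 CPM in stimulated KO libraries, against 179 and 213 CPM in stimulated WT libraries. With PBS it had 744 and 865 CPM in KO libraries, against 295 and 335 CPM in WT libraries. The 4 groups did not overlap, and the stimulated KO libraries sat just above the WT libraries with PBS. KO exceeded WT by 0.86 ± 0.11 after stimulation (adjusted p = 0.0113) and by 1.35 ± 0.12 with PBS (adjusted p = 0.00433), which is 1.82-fold and 2.56-fold. H2-Aa fell on stimulation, with a log2 change of -1.17 ± 0.12 in KO (adjusted p = 2.65e-04) and -0.68 ± 0.11 in WT (adjusted p = 0.00319).

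H2-Ab1, which encodes the beta subunit of the same I-A dimer, did not follow H2-Aa on stimulation. It had 567 and 579.6 CPM in stimulated KO libraries, against 261 and 324 CPM in stimulated WT libraries. With PBS its values were 439 and 519 CPM in KO libraries, against 216 and 185 CPM in WT libraries. Every KO library was above every WT library, and within each genotype the stimulated libraries were above those with PBS. KO over WT came to 0.97 ± 0.13 after stimulation (adjusted p = 0.0127) and to 1.26 ± 0.14 with PBS (adjusted p = 0.0108). Stimulation raised H2-Ab1 by 0.55 ± 0.13 in WT cells (adjusted p = 0.0162), and the KO difference of 0.26 ± 0.13 did not pass (adjusted p = 0.173). The WT call was lost without WT PBS library 2 (estimate 0.43) and without stimulated WT library 2 (estimate 0.38). It was also lost when libraries were scaled by size alone (0.36, adjusted p = 0.0537). Under that scaling the median of all genes was -0.20 in that contrast, against -0.0127 in the main fit.

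H2-Eb1, the beta chain of the second class II molecule I-E, had the largest estimate of the 3 chains for the difference between genotypes. It had 121 and 125 CPM in stimulated KO libraries, against 41.8 and 66.8 CPM in stimulated WT libraries. With PBS it had 267 and 308 CPM in KO libraries, against 90.7 and 99.4 CPM in WT libraries. The stimulated WT libraries were the lowest, and the KO libraries with PBS lay above all others. KO over WT was 1.18 ± 0.20 after stimulation (adjusted p = 0.0265) and 1.60 ± 0.21 with PBS (adjusted p = 0.0188), or 2.27-fold and 3.03-fold. It fell on stimulation, with a log2 change of -1.22 ± 0.20 in KO (adjusted p = 0.00316) and -0.81 ± 0.20 in WT (adjusted p = 0.0179, 0.0772 without WT PBS library 2). The alpha chain of I-E is annotated as H2-Ea-ps, a gene that is inactive in some mouse strains, and it had 0 counts in all 8 libraries, where 3 counts correspond to 0.0451 to 0.0546 CPM.

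Cd74, the invariant chain (chromosome 18, 60803848 to 60812652, plus strand), was the most abundant member in every library. Its level was 988 and 1007 CPM in stimulated KO libraries, against 543 and 651 CPM in stimulated WT libraries, and 1850.2 and 2126 CPM in KO libraries with PBS, against 1007 and 1128 CPM in WT libraries with PBS. KO libraries with PBS were the high group, and the stimulated KO libraries lay just below the WT libraries with PBS. KO exceeded WT by 0.74 ± 0.11 after stimulation (adjusted p = 0.0170) and by 0.90 ± 0.11 with PBS (adjusted p = 0.0167). Cd74 fell on stimulation, with a log2 change of -0.99 ± 0.11 in KO (adjusted p = 5.11e-04) and -0.84 ± 0.11 in WT (adjusted p = 0.00110).

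The H2-Aa difference with PBS stayed past the threshold without any 1 library, with adjusted p up to 0.0321. Without 1 library, H2-Ab1 with PBS lost its call when KO PBS library 2 (adjusted p = 0.0611) or WT PBS library 2 (0.0590) was left out, and Cd74 lost it without KO PBS library 2 (0.0918), WT PBS library 1 (0.0963) or WT PBS library 2 (0.0590). H2-Eb1 with PBS lost it when any PBS library or any stimulated KO library was left out (adjusted p = 0.0513 to 0.118). After stimulation, the calls of H2-Aa, H2-Ab1, H2-Eb1 and Cd74 were all lost on leaving out stimulated KO library 1 or 2 (adjusted p = 0.0649 to 0.119), that of H2-Eb1 also without KO PBS library 2 (0.0501), and that of Cd74 also without stimulated WT library 1 (0.0549). With only the groups compared in the fit, H2-Ab1 (adjusted p = 0.0528) and Cd74 (0.0582) lost their calls with PBS and H2-Eb1 (0.0704) lost its call after stimulation. The log2 differences in the fits without 1 library were between 0.61 for Cd74 and 1.70 for H2-Eb1.

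H2-DMa encodes the alpha chain of DM, the peptide exchange factor. It had 46.5 and 41.4 CPM in stimulated KO libraries, against 34.4 and 39.0 CPM in stimulated WT libraries, and 46.3 and 49.1 CPM in KO libraries with PBS, against 28.8 and 31.8 CPM in WT libraries with PBS. The genotypes lay apart with PBS and close together after stimulation. KO over WT was 0.66 ± 0.11 with PBS (adjusted p = 0.0380) and 0.26 ± 0.11 after stimulation (adjusted p = 0.238). The PBS call was lost in 7 of the 8 fits without 1 library (all but that without stimulated WT library 1, adjusted p = 0.0533 to 0.205) and with only the groups compared (0.0833). Neither response to stimulation passed: it was -0.12 ± 0.11 in KO (adjusted p = 0.426) and 0.28 ± 0.11 in WT (adjusted p = 0.0800).

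Of the 2 genes for the DM beta chain, H2-DMb1 carried most of the counts. It had 108 and 101 CPM in stimulated KO libraries, against 78.2 and 86.1 CPM in stimulated WT libraries, and 80.0 and 90.9 CPM in KO libraries with PBS, against 42.2 and 50.8 CPM in WT libraries with PBS. WT cells with PBS were the low group. KO exceeded WT by 0.88 ± 0.12 with PBS (adjusted p = 0.0204), and the difference of 0.34 ± 0.12 after stimulation did not pass (adjusted p = 0.166). The PBS call was lost without KO PBS library 1 (adjusted p = 0.0559), KO PBS library 2 (0.110), stimulated KO library 1 (0.0572), stimulated KO library 2 (0.0559) or WT PBS library 1 (0.0945), and with only the groups compared (0.0866). Stimulation raised H2-DMb1 by 0.82 ± 0.12 in WT (adjusted p = 0.00152), while the value of 0.29 ± 0.12 in KO did not pass (adjusted p = 0.0953).

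H2-DMb2 had 7.45 and 7.32 CPM in stimulated KO libraries, against 5.46 and 5.80 CPM in stimulated WT libraries. With PBS it had 4.85 and 4.44 CPM in KO libraries, against 3.15 and 3.75 CPM in WT libraries. All 4 groups lay apart, in the order given. Stimulation raised it by 0.67 ± 0.15 in KO (adjusted p = 0.0110) and by 0.71 ± 0.15 in WT (adjusted p = 0.00880). The KO call was lost without KO PBS library 2 (adjusted p = 0.0628) or stimulated KO library 1 (0.0587), and the WT call without WT PBS library 1 (0.0569). The genotype differences of 0.39 ± 0.15 after stimulation (adjusted p = 0.206) and 0.43 ± 0.15 with PBS (adjusted p = 0.242) did not pass. Of the 75-base stretches of their transcripts, H2-DMb1 and H2-DMb2 share 254 (15.8% and 14.6%), so that some H2-DMb2 counts may come from its more abundant copy. Within a library H2-DMb1 was 13.9 to 21.3 times as abundant as H2-DMb2 per kilobase.

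The DO genes were close to undetected with PBS. H2-Oa, the alpha chain of DO, had 3.38 and 2.72 CPM in stimulated KO libraries, against 2.33 and 2.17 CPM in stimulated WT libraries. With PBS it had 14 and 20 counts in KO libraries, against 7 and 0 counts in WT libraries. Stimulation raised it in KO by 3.45 ± 0.67 (adjusted p = 0.00643) and in WT by 5.40 ± 0.81 (adjusted p = 0.00192), and the WT size depends on those few counts. Genotype differences of 0.44 ± 0.59 after stimulation (adjusted p = 0.762) and 2.39 ± 0.86 with PBS (adjusted p = 0.259) did not pass. Without WT PBS library 1, which leaves the WT PBS group at 0 counts, the PBS difference had an adjusted p of 0.0456, and DESeq2 called it with all libraries (2.39, adjusted p = 0.0421).

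H2-Ob, the beta chain of DO, had 91 and 196 counts in stimulated KO libraries, against 28 and 32 counts in stimulated WT libraries, and 15 and 4 counts in KO libraries with PBS, against 15 and 0 counts in WT libraries with PBS. Its level was 1.65 and 2.98 CPM in stimulated KO libraries, against 0.509 and 0.551 CPM in stimulated WT libraries. The stimulated KO libraries were the highest and the genotypes overlapped with PBS. Stimulation raised H2-Ob by 3.87 ± 1.13 in KO (adjusted p = 0.0329), a call lost without any KO library or stimulated WT library (adjusted p = 0.0526 to 0.151). The WT response of 2.21 ± 1.15 did not pass (adjusted p = 0.173), nor did KO over WT after stimulation, 2.13 ± 1.02 (adjusted p = 0.311). Without WT PBS library 1 the WT response passed (adjusted p = 0.0160).

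Ciita, the class II coactivator, fell on stimulation in both genotypes. Its level was 6.15 and 11.6 CPM in stimulated KO libraries, against 1.80 and 3.73 CPM in stimulated WT libraries, and 27.5 and 40.2 CPM in KO libraries with PBS, against 15.7 and 15.6 CPM in WT libraries with PBS. The 4 groups did not overlap, but libraries of a group differed widely in 3 of the 4 groups. Ciita fell on stimulation, with a log2 change of -1.93 ± 0.41 in KO (adjusted p = 0.00887) and -2.50 ± 0.43 in WT (adjusted p = 0.00341), or 3.81-fold and 5.66-fold. KO over WT was 1.68 ± 0.42 after stimulation (adjusted p = 0.0769) and 1.11 ± 0.40 with PBS (adjusted p = 0.253), neither past the threshold. The difference after stimulation passed with DESeq2 (adjusted p = 4.96e-04) and with scaling by library size alone (adjusted p = 0.0474).

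**Figure D2:**
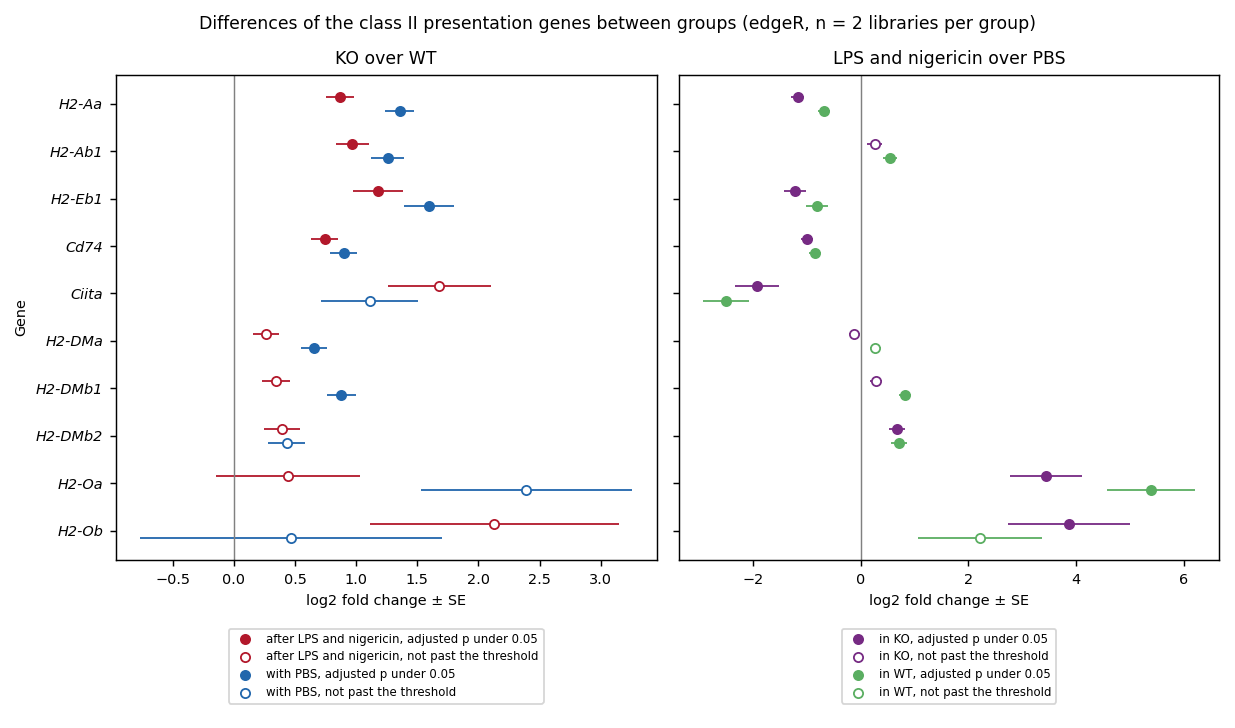
Differences (log2 fold change ± SE, edgeR, n = 2 libraries per group) for each member between KO and WT (left) and between LPS with nigericin and PBS (right), with filled points where the adjusted p was under 0.05. Every KO over WT point lies above 0, while the responses to stimulation lie on both sides of 0, from -2.50 for Ciita to 5.40 for H2-Oa in WT cells.

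The members did not respond to stimulation in 1 direction. In KO cells 3 members rose (H2-DMb2, H2-Oa and H2-Ob) and 4 fell (H2-Aa, H2-Eb1, Cd74 and Ciita), against 20.2% and 19.0% of all tested genes. In WT cells 4 rose (H2-Ab1, H2-DMb1, H2-DMb2 and H2-Oa) and 4 fell (H2-Aa, H2-Eb1, Cd74 and Ciita), against 20.6% and 20.0%. The median over the members was 0.07 in KO and 0.41 in WT, with -0.0331 and -0.0127 over all tested genes. The difference between the KO and the WT response passed for none of the members by edgeR's quasi-likelihood test (0 higher and 0 lower, against 0.103% and 0.395% of all tested genes) or by DESeq2 (0 and 0, against 1.08% and 1.67%). At an unadjusted p under 0.05, against 4.80% of genes higher and 5.91% lower, 0 members were higher and 3 were lower in that difference: H2-Aa at -0.49 ± 0.16 (adjusted p = 0.322), H2-DMa at -0.39 ± 0.15 (adjusted p = 0.404) and H2-DMb1 at -0.53 ± 0.16 (adjusted p = 0.286).

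The order of the members was compared per kilobase of merged exons (CPM per kb), since counts grow with length. With PBS, KO means ran from Cd74 (1184 ± 116, SD, n = 2) through H2-Aa (212 ± 22.5), H2-Ab1 (186 ± 22.2), H2-Eb1 (148 ± 14.9), H2-DMb1 (50.9 ± 4.58), H2-DMa (13.8 ± 0.593), Ciita (3.55 ± 0.942), H2-DMb2 (2.66 ± 0.168) and H2-Oa (0.199 ± 0.0412) to H2-Ob (0.0297 ± 0.0251). The libraries of H2-Aa and H2-Ab1 overlapped in that order, and those of every other neighbouring pair did not. After stimulation the KO order was Cd74 (594 ± 7.80), H2-Ab1 (223 ± 3.53), H2-Aa (94.0 ± 0.921), H2-Eb1 (63.4 ± 1.49), H2-DMb1 (62.1 ± 3.18), H2-DMa (12.7 ± 1.05), H2-DMb2 (4.23 ± 0.0543), H2-Oa (2.17 ± 0.331), Ciita (0.931 ± 0.404) and H2-Ob (0.430 ± 0.176). Here H2-Eb1 and H2-DMb1 overlapped. With PBS the WT order was Cd74 (636 ± 51.0), H2-Aa (82.8 ± 7.48), H2-Ab1 (78.0 ± 8.60), H2-Eb1 (48.9 ± 3.16), H2-DMb1 (27.7 ± 3.62), H2-DMa (8.78 ± 0.617), H2-DMb2 (1.97 ± 0.243), Ciita (1.64 ± 0.00529), H2-Oa (0.0382 ± 0.0540) and H2-Ob (0.0214 ± 0.0303). H2-Aa and H2-Ab1 overlapped, as did the DO genes. After stimulation it was Cd74 (355 ± 45.5), H2-Ab1 (114 ± 17.2), H2-Aa (51.6 ± 6.16), H2-DMb1 (48.9 ± 3.32), H2-Eb1 (27.9 ± 9.08), H2-DMa (10.6 ± 0.944), H2-DMb2 (3.22 ± 0.139), H2-Oa (1.60 ± 0.0803), Ciita (0.290 ± 0.143) and H2-Ob (0.0985 ± 0.00544). H2-Aa and H2-DMb1 overlapped there.

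Within a library, levels of the chain genes were also set against each other. H2-Ab1 over H2-Aa per kilobase was 2.37 and 2.39 in stimulated KO libraries, against 2.16 and 2.25 in stimulated WT libraries, and 0.872 and 0.888 in KO libraries with PBS, against 1.08 and 0.817 in WT libraries with PBS. The stimulated libraries lay above all libraries with PBS in both genotypes, and the genotypes overlapped with PBS. H2-Eb1 over H2-Aa stayed between 0.455 and 0.702 in all 8 libraries. Cd74 over H2-Aa was 6.31 and 6.34 in stimulated KO libraries, against 6.84 and 6.93 in stimulated WT libraries, and 5.63 and 5.56 in KO libraries with PBS, against 7.74 and 7.63 in WT libraries with PBS. KO libraries were thus below WT libraries in each treatment. These 3 ratios were each compared between treatments within genotype and between genotypes within treatment by exact two-sided permutation tests with 36 arrangements (6 tests, added after the ratios were seen), whose smallest possible p is 0.0556, so that none could pass 0.05. That p was reached for H2-Ab1 over H2-Aa between treatments (stimulated minus PBS, mean log2 difference 1.33), for H2-Eb1 over H2-Aa between genotypes (KO minus WT, 0.30) and for Cd74 over H2-Aa between genotypes (-0.29), each with an adjusted p of 0.111. The ratios rest on annotated exon lengths, and the use of transcripts was not tested.

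**Figure D3:**
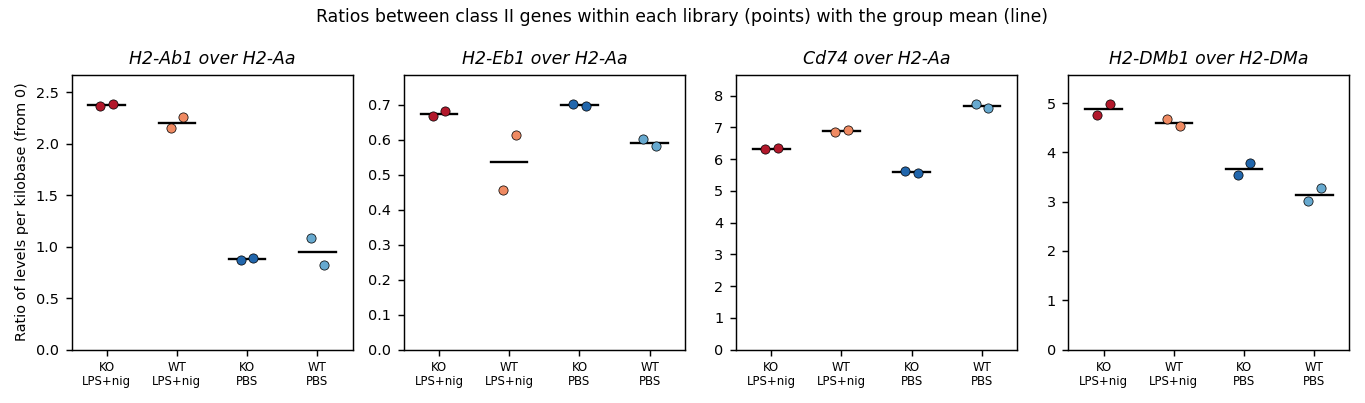
Ratio of levels per kilobase between pairs of class II genes within each library (points, axis from 0) with the group mean (line), n = 2 per group. H2-Ab1 over H2-Aa lies at 2.16 to 2.39 in stimulated libraries and at 0.817 to 1.08 with PBS, and Cd74 over H2-Aa is lower in KO than in WT in both treatments.

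Among the 7 factors that bind class II promoters (Rfx5, Rfxap, Rfxank, Nfya, Nfyb, Nfyc and Creb1), 0 differed between KO and WT with PBS by edgeR or DESeq2 (1 at an unadjusted p under 0.05). Of all tested genes, edgeR called 1.20% higher and 0.355% lower with PBS, and DESeq2 3.18% and 1.68%. At that unadjusted p the shares were 8.68% and 6.71%, so 0 of 7 is near the share of all genes. After stimulation edgeR called 2.91% of all tested genes higher and 2.01% lower, and DESeq2 5.34% and 4.04%. Of the 7 factors 1 was higher and 0 were lower, also with DESeq2. That gene was Rfx5, the DNA-binding subunit of RFX, with 30.2 and 29.1 CPM in stimulated KO libraries, against 16.1 and 20.9 CPM in stimulated WT libraries. KO exceeded WT by 0.68 ± 0.14 (adjusted p = 0.0466), a call lost in 7 of 8 fits without 1 library (all but that without stimulated WT library 2, adjusted p up to 0.209). It was also lost with only the groups compared (0.0866) and when low-count genes were kept (0.0588). In response to stimulation Rfx5 rose by 1.34 ± 0.15 in KO (adjusted p = 4.34e-04) and by 0.89 ± 0.14 in WT (adjusted p = 0.00282). Its partner Rfxap fell, with a log2 change of -0.60 ± 0.11 in KO (adjusted p = 0.00400) and -0.95 ± 0.11 in WT (adjusted p = 4.82e-04). The other genotype differences in this list lay between -0.31 and 0.54.

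Of 18 genes that act on Ciita (interferon gamma, its receptor and signal chain, other inducers, and repressors), 0 differed between genotypes by edgeR with PBS (1 by DESeq2 and 1 at an unadjusted p under 0.05) or after stimulation (2 by DESeq2 and 5 at an unadjusted p under 0.05). At that unadjusted p, 10.6% of all tested genes were higher and 9.22% lower after stimulation, and 8.68% and 6.71% with PBS. By edgeR, 1.20% of all tested genes were higher and 0.355% lower with PBS, and 2.91% and 2.01% after stimulation. By DESeq2 these shares were 3.18% and 1.68% with PBS, and 5.34% and 4.04% after stimulation. On stimulation 9 rose and 6 fell in KO, against 20.2% and 19.0% of all tested genes. In WT 8 rose and 4 fell, against 20.6% and 20.0%. Irf1, a factor at the interferon-responsive Ciita promoter, rose by 2.53 ± 0.26 in KO (adjusted p = 3.48e-04) and by 2.13 ± 0.26 in WT (adjusted p = 7.25e-04), while Ciita fell. Ifng itself had 124 and 98 counts in stimulated KO libraries, against 0 and 4 counts in stimulated WT libraries, and 0 counts in every library with PBS. Its KO over WT test after stimulation did not pass (adjusted p = 0.0649).

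The 10 endosomal genes of the list, most of which prepare peptides or process the invariant chain, were compared between genotypes in the same fit. With PBS DESeq2 called 2 higher and 1 lower in KO over WT, against 3.18% and 1.68% of all tested genes. By edgeR 1 was higher and 0 were lower, against 1.20% and 0.355%. That gene was Ctsc, cathepsin C, with 309 ± 9.64 CPM in KO libraries and 193 ± 6.05 CPM in WT libraries (SD, n = 2), a difference of 0.68 ± 0.06 (adjusted p = 0.00584, with 0.0513 without WT PBS library 1 and 0.0528 with only the groups compared). After stimulation DESeq2 called 0 higher and 5 lower in KO, against 5.34% and 4.04% of all tested genes. By edgeR 0 were higher and 3 were lower, against 2.91% and 2.01%. Ifi30, the lysosomal thiol reductase GILT, was lower, with a difference of -0.64 ± 0.07 (196 ± 2.12 CPM in KO libraries and 304 ± 22.2 CPM in WT libraries, adjusted p = 0.00614). Lgmn, the asparagine endopeptidase, was also lower (-0.49 ± 0.06, adjusted p = 0.00837), as was Ctss, the cathepsin that makes the last cut of the invariant chain (-0.41 ± 0.07, adjusted p = 0.0218). Each of these 3 calls was lost on leaving out stimulated KO library 1 or 2 (adjusted p = 0.0503 to 0.141), and that of Ctss also without stimulated WT library 2 (0.0586) and with only the groups compared (0.0527).

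Among 6 genes that set the surface life of class II, 2 rose and 4 fell on stimulation in each genotype. Of all tested genes, 20.2% rose and 19.0% fell in KO, and 20.6% and 20.0% in WT. March1, a ubiquitin ligase that sends class II to lysosomes, rose by 2.09 ± 0.16 in KO (adjusted p = 8.59e-05) and by 2.32 ± 0.16 in WT (adjusted p = 5.38e-05). Cd83, which counters that ligase, had 12.01 and 9.73 CPM in stimulated KO libraries, against 23.7 and 18.5 CPM in stimulated WT libraries. By edgeR it was the 1 gene of this list called between genotypes, lower in KO after stimulation (-0.96 ± 0.17, adjusted p = 0.0313). This difference did not pass on leaving out any stimulated KO library, any WT PBS library or stimulated WT library 1 (log2 -1.12 to -0.77). It also fell short with scaling by library size alone (adjusted p = 0.0524) and with only the groups compared (0.0831). Of all tested genes, edgeR called 2.91% higher and 2.01% lower in KO after stimulation. In that contrast DESeq2 called 0 of the 6 higher and 2 lower, against 5.34% and 4.04% of all tested genes. With PBS 0 of the 6 were called by edgeR or DESeq2, with 2 at an unadjusted p under 0.05. At that unadjusted p, 8.68% of all tested genes were higher and 6.71% lower with PBS.

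The same chromosome 17 region holds genes of another presentation route. The peptide transporter genes Tap1 and Tap2 and the immunoproteasome genes Psmb8 and Psmb9, which serve MHC class I, lie between H2-DMb1 and H2-Ob. On stimulation Tap1 rose by 3.01 ± 0.17 in KO (adjusted p = 2.00e-05) and by 3.31 ± 0.17 in WT (adjusted p = 1.37e-05), and Psmb8 rose by 2.65 ± 0.12 in KO and by 2.85 ± 0.12 in WT. Of the 7 tested neighbours (these 4, Brd2, Btnl2 and H2-Eb2), 0 were called between genotypes with PBS or after stimulation by edgeR. DESeq2 called 1 with PBS and 2 after stimulation, and 1 and 3 passed an unadjusted p of 0.05. Of all tested genes, DESeq2 called 3.18% higher and 1.68% lower with PBS, and 5.34% and 4.04% after stimulation. Tap1 had 264 ± 11.9 CPM in stimulated KO libraries and 263 ± 14.8 CPM in stimulated WT libraries. Tap2 had 230 ± 24.9 CPM in stimulated KO libraries and 183 ± 1.97 CPM in stimulated WT libraries. Its KO over WT difference by edgeR was 0.33 ± 0.09 after stimulation (adjusted p = 0.0881) and 0.38 ± 0.09 with PBS (adjusted p = 0.101). After stimulation that difference was -0.18 for Psmb8 and 0.04 for Psmb9. H2-Eb2 is a class II beta chain gene next to H2-Eb1, and its promoter also held both motifs. It had 55 and 76 counts in stimulated KO libraries, against 7 and 0 counts in stimulated WT libraries. With PBS it had 0 counts in all libraries. Its KO over WT difference after stimulation did not pass by edgeR (4.10 ± 1.35, adjusted p = 0.195).

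**Figure D4:**
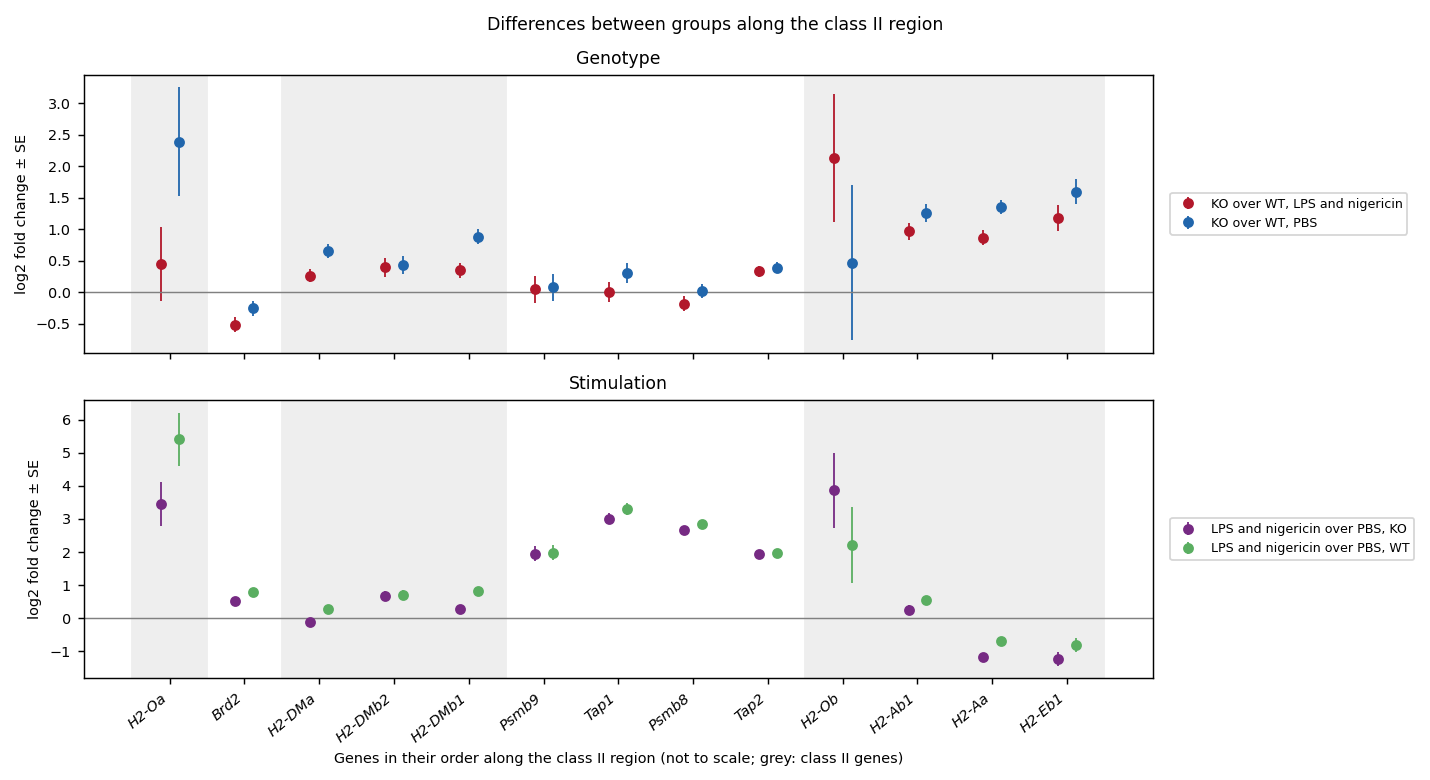
Differences (log2 fold change ± SE) for genes in their order along the chromosome 17 class II region (not to scale, class II genes on grey), for KO over WT (upper) and stimulation over PBS (lower). Psmb9, Tap1, Psmb8 and Tap2 rise on stimulation and lie between -0.18 and 0.38 between genotypes. H2-Ab1, H2-Aa and H2-Eb1 lie at 0.86 or above between genotypes. H2-DMa, H2-DMb1 and H2-DMb2 lie between 0.26 and 0.88, so that some of their values fall in the range of the Tap and Psmb genes. H2-Oa and H2-Ob, which rest on few counts, lie between 0.44 and 2.39.

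Some counts may belong to genes on the other strand, since the sources used here do not give whether counting used strand. H2-DMa overlaps Brd2 by 3094 bases, and Brd2 had 196 and 189 CPM in stimulated KO libraries, against 311 and 239 CPM in stimulated WT libraries, and 137 and 129.7 CPM in KO libraries with PBS, against 164 and 156 CPM in WT libraries with PBS. The Brd2 libraries of KO cells lay below those of WT cells in each treatment, the opposite order to H2-DMa. H2-DMa also overlaps CR974462.3, on its own strand, CR974462.4 and Gm20493, whose levels are not given here. Ciita overlaps Dexi by 25888 bases, and Dexi had 8.002 to 11.7 CPM in all 8 libraries. These overlaps are of whole gene spans with introns, while the merged exons of Ciita come to 9535 bases. The overlap of exons was not measured. The antisense genes that overlap H2-Eb1 and H2-Oa had at most 14 counts in any library.

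Markers of other class II-bearing cells were read beside these results. Among 8 B cell markers, those at 0 in every library included Fcer2a, and the summed level was 36.8 to 38.1 CPM in stimulated KO libraries, against 24.2 to 24.97 CPM in stimulated WT libraries, and 112 to 129 CPM in KO libraries with PBS, against 86.3 to 92.0 CPM in WT libraries with PBS. Nearly all of it was Cd22 and Ighm, whose genotype order differed with PBS. Cd22 had 83.4 and 93.0 CPM in KO libraries with PBS, against 34.6 and 38.8 CPM in WT libraries with PBS, while Ighm had 28.2 and 35.8 CPM in KO libraries with PBS, against 51.5 and 53.0 CPM in WT libraries with PBS. The other 6 summed to 1.03 to 1.39 CPM in stimulated KO libraries, against 0.327 to 0.473 CPM in stimulated WT libraries, and to 0.409 to 0.641 CPM in KO libraries with PBS, against 0.169 to 0.226 CPM in WT libraries with PBS. Of 9 dendritic cell markers, Flt3 was at 0 in every library and 2 to 5 were at 0 in each. Their sum was 139 to 146 CPM in stimulated KO libraries, against 236 to 240.3 CPM in stimulated WT libraries, and 261 to 288 CPM in KO libraries with PBS, against 219 to 231 CPM in WT libraries with PBS. Without Itgax, which macrophages also express, the other 8 summed to 2.73 to 3.91 CPM in stimulated KO libraries, against 1.24 to 1.47 CPM in stimulated WT libraries, and to 1.31 to 1.74 CPM in KO libraries with PBS, against 1.03 to 1.07 CPM in WT libraries with PBS. Of 8 T and NK cell markers, Cd3e and Gzma were at 0 in every library, and the sum was 1.18 to 2.01 CPM in stimulated KO libraries, against 1.32 to 1.47 CPM in stimulated WT libraries, and 0.897 to 0.919 CPM in KO libraries with PBS, against 0.120 to 0.660 CPM in WT libraries with PBS. The 7 macrophage markers summed to 25522 to 26636 CPM in stimulated KO libraries, against 44535 to 47168 CPM in stimulated WT libraries, and to 25968 to 27122 CPM in KO libraries with PBS, against 41060 to 44108 CPM in WT libraries with PBS. Most of that sum was Lyz2, the locus that carries Cre in KO mice. Without it the other 6 summed to 10778 to 11232 CPM in stimulated KO libraries, against 12314 to 12745 CPM in stimulated WT libraries, and to 9191 to 9608 CPM in KO libraries with PBS, against 8316 to 8708 CPM in WT libraries with PBS, so that the KO libraries were the lower ones after stimulation and the higher ones with PBS. The part of these cells in the class II differences was not tested.

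Genes outside the set were ranked by how closely their pattern over the 8 libraries followed the mean of H2-Aa, H2-Ab1, H2-Eb1 and Cd74. The ranking covered the 8636 genes that averaged 10 CPM or more. The closest were Gdf3 (Pearson r = 0.989), Mfsd5 (0.987), Lsm10 (0.985), Ceacam1 (0.978) and Stt3b (0.974). Pearson r does not weigh the size of differences. Over the 8 libraries Stt3b ran only from 110 to 133 CPM and Ceacam1 from 9.04 to 13.6 CPM. Gdf3, a growth factor of the TGF-beta family, had 14.7 and 16.2 CPM in stimulated KO libraries, against 7.55 and 9.31 CPM in stimulated WT libraries, and 27.9 and 29.3 CPM in KO libraries with PBS, against 9.84 and 12.7 CPM in WT libraries with PBS. Of the 4 parts of that mean, H2-Eb1 followed it with r = 0.991, H2-Aa with 0.980 and Cd74 with 0.943, but H2-Ab1 with 0.666 only. Among other members the values were 0.837 for Ciita, 0.754 for H2-DMa, 0.352 for H2-DMb1 and 0.0392 for H2-DMb2. They were -0.113 for H2-Oa and -0.0820 for H2-Ob. The libraries fall into 4 groups and share their scaling, so these values describe likeness and carry no test.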

How the data were processed

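RNA-seq counts per gene were analysed from 8 libraries of bone marrow-derived macrophages, in 4 groups of 2. The authors deposited whole-number counts, and per the submitters' processing notes Trimmomatic, Bowtie2, edgeR and the build mm10 were used, without versions. The sources used here name no counting tool, annotation or use of strand. Low values pile up at 4 (1048 to 1171 genes per library at 4, 326 to 354 at 3 and 161 to 210 at 5). A deposited count may therefore not be 1 read, and no counting interval is given. The label of the stimulated samples gives 3 h of nigericin, while the series text allows a shorter time.

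Identifiers were matched to GENCODE M21, which named 55141 of 55401 genes. Genes passing filterByExpr (minimum count 10, minimum total 15) numbered 17470 and held 99.98% of counts. All libraries were fitted together with edgeR 4.0.16 in R 4.3.3 (TMM factors, 1 coefficient per group, 4 residual degrees of freedom, biological coefficient of variation 0.215), with quasi-likelihood F tests of 5 contrasts and Benjamini-Hochberg adjustment over all tested genes at 0.05. Standard errors were taken as the log2 fold change divided by the root of F. CPM are counts over the TMM-corrected library size of the tested genes, and CPM per kb divides by merged exon length. Alternatives were DESeq2 (1.42.0), other scalings and filters, only the groups compared, a replicate block, each library left out, and counts divided by 4, the last added after the data were seen. The fit was tested on simulated counts.

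The members, the gene lists and the marker lists were chosen with earlier results of these data known. All members are named in all contrasts. Of the 5 other lists, counts are given with up to 5 called genes of lowest adjusted p per contrast as the pool for values, and Ifng, H2-Eb2, H2-Ea-ps and the genes overlapping members were named after their values were seen. The 5 genes most like the mean of H2-Aa, H2-Ab1, H2-Eb1 and Cd74 were taken by Pearson r of log2(CPM + 0.01). Promoter sequences are those of RefSeq (GRCm38.p6).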

Additional observations from a re-analysis of the deposited data

Results flagged for a closer look

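Itgax, the integrin alpha X chain CD11c that dendritic cells and many macrophages carry, was the 1 gene of 78 tested members, list genes and markers whose response to LPS and nigericin differed between genotypes by edgeR's quasi-likelihood test. Of all tested genes, edgeR called 0.103% higher and 0.395% lower in that difference, and DESeq2 called 1.08% and 1.67%. DESeq2 called 6 of the 78, Itgax among them. Its level was 139 ± 3.997 CPM in stimulated KO libraries and 237 ± 3.12 CPM in stimulated WT libraries, and 273 ± 19.5 CPM in KO libraries with PBS and 224 ± 8.58 CPM in WT libraries with PBS (SD, n = 2 each). The KO response minus the WT response was -1.05 on the log2 scale (edgeR's quasi-likelihood test, adjusted p = 0.0141).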

How the results depend on the processing

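Of 780 recomputed member values, 713 kept their direction and their side of the threshold, 52 lost a call, 7 gained one and 8 changed direction. With a filter of 5 CPM in 2 libraries, which removes the DO genes, 1 member was higher on stimulation in KO, and with only the groups compared 2 members were higher in KO with PBS. Leaving out 1 library gave 1 to 3 members higher on stimulation in KO, 1 to 6 higher in KO with PBS and 0 to 4 higher in KO after stimulation, and a group left with 1 library was assumed to vary like the others. The changes of direction were in values that had not passed the threshold. For H2-DMb2 the KO minus WT response was 0.067 with library size only and -0.15 to 0.081 without 1 library (above 0 without KO PBS library 1, WT PBS library 1 or stimulated WT library 2). For H2-Ob it was -4.15 (without WT PBS library 1) to 2.96, and its KO over WT difference with PBS was -0.84 (without KO PBS library 1) to 6.27, also below 0 without WT PBS library 2. For Cd74 the KO minus WT response was -0.28 to 0.0032, the last without stimulated WT library 2. The cause was not tested. With scaling by library size alone the median of all genes was -0.20 in the WT response (-0.0127 in the main fit) and -0.11 in the KO response (-0.0331). It was 0.13 between genotypes after stimulation (-0.0045) and 0.10 in the difference of responses (-0.0020). Scaling by library size alone brought H2-DMb1 past the threshold after stimulation (adjusted p = 0.0411). Its share of higher calls among all calls was 36.5% in the WT response (50.7% in the main fit) and 81.6% between genotypes after stimulation (59.1%). Dividing counts by 4 changed no member call. The labels do not say whether replicate numbers pair the libraries. Correlations of same-numbered deviations over all tested genes were -0.0242 to 0.183, which cannot settle this for single genes. For H2-Aa, H2-Eb1 and Cd74, library 2 lay above library 1 in every group. With the replicate as a block, H2-DMa lost its call with PBS (0.66, adjusted p = 0.0619), Rfx5 lost its call after stimulation (0.69, adjusted p = 0.0629) and Ciita gained one after stimulation (1.69, adjusted p = 0.0349). Values of H2-Oa and H2-Ob rest on few counts.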
